A study of Mus musculus with 18 samples.

Results

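Transcript levels were compared between 6 mammary tumors driven by medroxyprogesterone acetate (MPA) plus 7,12-dimethylbenz[a]anthracene (DMBA), called M/D-driven tumors here, and 6 mammary glands from M/D-naïve mice, which make up 12 of the 18 samples of the series. The other 6 were hyperplastic glands of mice that received both agents without developing a tumor. All mice were female C57Bl/6. Tumor-bearing mice carried a 50 mg MPA pellet releasing the progestin over 90 days, implanted at an age of 6 to 9 weeks, and were gavaged 6 times with 200 µL of DMBA at 5 mg/mL, and tumors were collected at 0.7 to 1 cm2. Normal glands came from mice exposed to neither agent, at an age the labels do not give. Each sample was hybridised to its own Affymetrix mouse whole-transcript array, and the labels name no mouse behind a sample. The p-values thus refer to the scatter among the samples at hand, part of which may be technical.

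Of 27030 genes tested with limma, 5278 (19.5%) were higher in tumors than in normal glands and 3435 (12.7%) were lower, at an adjusted p under 0.05, so that 32.2% changed. A log2 change beyond 2, that is 4-fold, was reached by 52 genes upwards (0.192%) and 217 downwards (0.803%). All 6 tumors lay above all 6 normal glands for 2472 of the genes called higher (9.15% of all genes), and below them for 1876 of those called lower (6.94%). These shares are the background for the family counts below. At the same p cut, negative control probe sets, which match no transcript, were lower in 14.2% of 5222 and higher in 2.05%. The share of all genes called lower, 12.7%, thus did not exceed that of these controls, and the origin of their falls was not tested. The median change of all genes was 0.044, and 0.067 for the 17279 genes above the detection level in either group, of which 27.2% were higher and 16.9% lower. The detection level, 5.39 log2 units, is the level under which 95% of 950 olfactory receptor genes lay. Where a group mean is under it, no fold is given. Genes under it in both groups were lower in 5.3% and higher in 5.9%. A set of 16 reference genes had a mean change of 0.21, with 8 of them higher and 2 lower. Centring each array on their mean lowers every change by this amount, after which 2144 genes were higher and 11204 lower, and families whose median change lay between 0 and 0.21 turn their direction.

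The labelled tissues were checked against cell type markers. The 12 mammary epithelium markers averaged between 7.46 and 10.31 on tumor arrays and between 8.43 and 9.02 on normal gland arrays, and 1 of them rose. In tumor 3 this mean, 7.46, was below that of every normal gland. Fat cell markers fell in 6 of 6 (7.08 to 8.73 in tumors, 10.55 to 10.81 in normal glands), lymph node markers in 5 of 5 measured (5.82 to 7.63 and 8.65 to 9.54), mast cell markers in 3 of 4 (6.21 to 7.08 and 9.02 to 9.59) and endothelial markers in 6 of 6 (7.98 to 8.56 and 9.17 to 9.46). Of 4 macrophage markers 1 rose (9.68 to 11.26 and 9.74 to 10.16), while 0 of 6 skeletal muscle and 0 of 6 epidermal markers passed. In whole tissue, fewer cells of a type and less RNA per cell cannot be told apart, and whether a node lay in the glands is not stated in the labels. Tumor 3 and tumor 6 correlated least with the mean of the other tumors (r = 0.945 and 0.961 across genes, which are not independent replicates, against 0.967 to 0.979 for the other tumors). Without both, 5570 genes were higher and 3521 lower, 73 and 227 of them beyond 4-fold.

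A growing tumor has to make ribosomes, charge transfer RNAs, fold and degrade proteins, and supply membranes and nucleotides, while a resting gland is largely fat tissue with ducts, vessels and leukocytes. The families below were drawn from textbook knowledge to follow these tasks and the signals that reach the tissue. Autosomes after 16 had 2 entries in the deposited data, so family members encoded there are missing. All family counts thus cover measured members only. Among the 20 largest rises, 10 were genes of cell division, and the other 10 included secreted and matrix genes. Versican (Vcan), a large proteoglycan of provisional matrix, had 8.49, 9.49 and 10.77 in tumors against 6.61, 7.01 and 7.52 in normal glands. Such triplets are the lowest, median and highest log2 value of the 6 arrays of a group. A change is the log2 difference of tumors minus normal glands, given with its standard error (SE) and the adjusted p of limma. For Vcan it was 2.62 (SE 0.32, adjusted p = 8.07e-06), and tumors were above normal glands throughout. Nrg1, which encodes the growth factor neuregulin 1, had 6.64, 8.86 and 9.76 in tumors against 5.64, 5.72 and 5.89 in normal glands, a change of 2.87 (SE 0.38, adjusted p = 1.45e-05). Col12a1, a collagen of fibril surfaces, changed by 2.87 (SE 0.38), and the copper enzyme homolog Moxd1 by 2.58 (SE 0.50).

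The rises that led the list were not even among tumors. The model takes 1 spread per gene for all 3 groups, so its SE can be too small where tumors vary more than the other samples. Klk10, a secreted protease of the kallikrein family, stood at 9.43, 6.07, 5.99, 9.27, 8.23 and 10.71 in tumors 1 to 6, against 5.81, 5.69, 5.60, 5.85, 5.76 and 5.98 in normal glands 1 to 6, so that tumors 2 and 3 were just above the highest normal gland (2.50, SE 0.65, adjusted p = 0.00622). The cornified envelope gene Sprr1a ranged from 7.53 to 10.67 in tumors and from 5.28 to 6.65 in normal glands (3.59, SE 0.64, adjusted p = 0.000276). By contrast, Ect2, an exchange factor for the GTPase that drives cytokinesis, had 7.57, 8.45 and 9.03 in tumors against 5.43, 5.91 and 6.13 in normal glands, and its groups were 1.43 log2 units apart (2.51, SE 0.22, adjusted p = 1.91e-07). Moxd1 was lowest in tumor 3, at 7.68, which was still above the highest normal gland at 7.54.

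Of the 20 largest falls, 11 were antigen receptor gene segments or Ighm, 2 were mast cell genes and 2 were genes of lymphoid follicles. The other 5 are known from fat, liver or endocrine tissue. Cyp2e1, a cytochrome P450 that oxidises ethanol and small solvents, had 6.12, 7.43 and 8.97 in tumors against 11.46, 11.67 and 11.98 in normal glands, and was 19.7-fold lower in tumors (-4.30, SE 0.37, adjusted p = 1.78e-07). The peroxisomal fatty acid transporter gene Abcd2 was 12.0-fold lower and the amylase gene Amy1, whose probes can be shared with near-identical amylase copies, 12.0-fold lower. Tshr, the thyrotropin receptor gene, and Scg3, a secretory granule gene, averaged under the detection level in tumors, where Tshr had 5.24 ± 0.58 in tumors and 9.06 ± 0.24 in normal glands and Scg3 had 5.17 ± 0.49 in tumors and 8.95 ± 0.49 in normal glands (SD, n = 6 each). Both differed between groups (adjusted p = 7.78e-09 and 4.76e-08). These genes moved together with the fat cell markers given above, whose part in their falls was not tested.

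**Figure D1:**
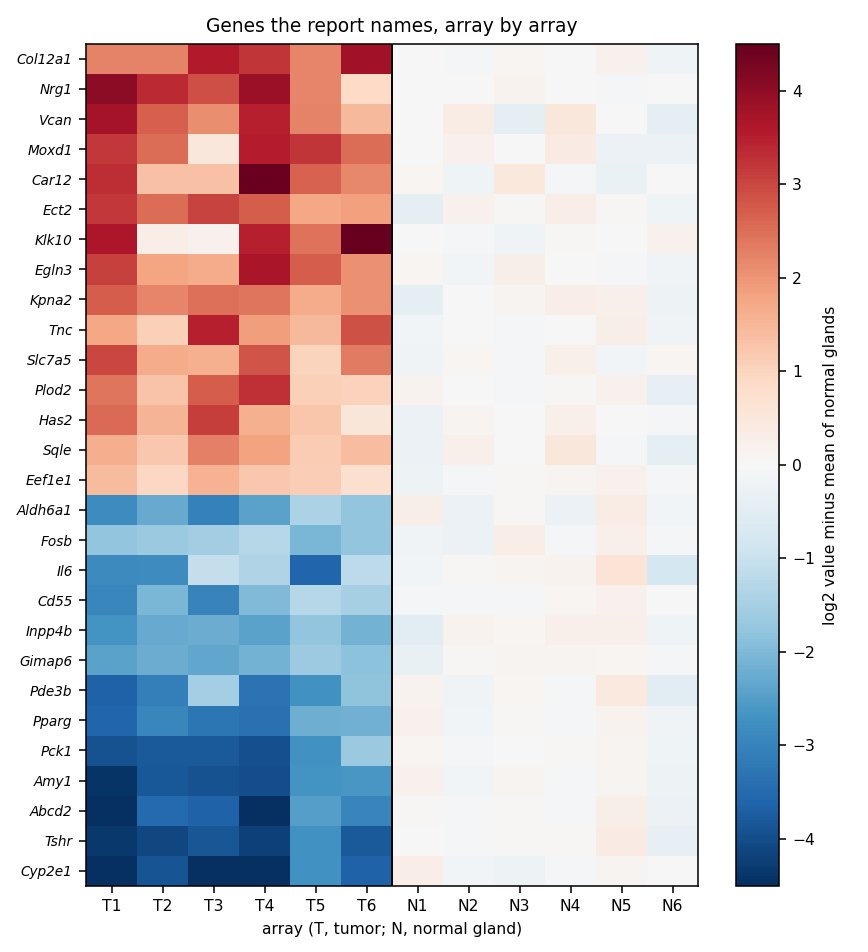
Heat map of 28 genes (rows) on 6 tumor arrays (T1 to T6) and 6 normal gland arrays (N1 to N6), coloured by the log2 value minus the mean of the normal glands. All are named in the text except Egln3, which is among the 20 largest rises. Rows of raised genes vary more among tumors, as Klk10 between 5.99 and 10.71, than among normal glands.

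Genes of protein synthesis were raised. All 17 measured cytosolic tRNA synthetase genes and complex members were higher in tumors, against 19.5% of all genes. Their median change was 0.60, and for 14 of them the groups did not overlap. These enzymes attach amino acids to transfer RNAs. Their mean level was 8.60 to 9.07 on tumor arrays and 8.09 to 8.34 on normal gland arrays. Eef1e1, a scaffold of the multi-synthetase complex, had 8.91, 9.35 and 9.74 in tumors against 7.97, 8.18 and 8.39 in normal glands, and every tumor exceeded every normal gland (1.16, SE 0.11, adjusted p = 8.14e-07). The threonyl and arginyl enzymes Tars and Rars changed by 0.79 (SE 0.14, adjusted p = 0.000196) and 0.76 (SE 0.10, adjusted p = 2.12e-05). At the low end, Wars, the tryptophanyl enzyme, had 7.86, 8.06 and 8.17 in tumors against 7.64, 7.86 and 7.95 in normal glands, with overlapping groups and a change of 0.20 (SE 0.07, adjusted p = 0.0347). It was chosen after its values were seen, lost the call on leaving out any of 5 arrays (0.15 to 0.18) and stood at -0.01 after centring on the reference genes.

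The start sites of 14 of these 17 genes have an entry among the RefSeq promoters, and 4 of the 14 (28.6%) hold TGATGNAA on either strand in the window from 250 bases before to 50 bases after the start, against 4.51% of 27025 genes. The letters TGATGNAA are those of the element bound by ATF4 together with a C/EBP protein, factors of the amino acid response. The match is a description of the letters and shows no binding. The 120 bases before the start are shown for the 2 genes whose match lies before it, 5′ to 3′ on the gene's strand, with the match (read on the opposite strand) in capitals (RefSeq, GRCm38.p6). They lie at chr15:11399659-11399778, minus strand, for Tars, and at chr6:55037881-55038000, plus strand, for Gars.
Tars: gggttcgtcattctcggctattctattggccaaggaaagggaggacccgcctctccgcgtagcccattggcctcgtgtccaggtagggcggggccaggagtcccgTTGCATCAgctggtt
Gars: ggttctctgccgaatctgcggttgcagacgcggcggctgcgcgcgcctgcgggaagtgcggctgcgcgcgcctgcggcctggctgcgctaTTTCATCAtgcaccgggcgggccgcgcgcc
Gars, the glycyl enzyme, was chosen after its values were seen and changed by 0.69 (SE 0.14, adjusted p = 0.000875), with 9.36, 9.76 and 10.39 in tumors against 8.67, 9.11 and 9.27 in normal glands.

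Ribosome assembly and the supply of mitochondrial ribosomes followed the same direction. Of 58 ribosome biogenesis genes 51 were higher and 0 lower (median 0.39), and of 60 mitochondrial ribosomal protein genes 45 and 0 (median 0.27). After centring on the reference genes, 24 were higher and 2 lower for ribosome biogenesis, and 12 and 1 for mitochondrial ribosomal proteins. The nucleolar methyltransferase Nop2 had 8.57, 8.81 and 9.66 in tumors against 7.72, 8.0 and 8.24 in normal glands (0.96, SE 0.15, adjusted p = 6.91e-05), and the snoRNP subunit Nhp2 changed by 0.82 (SE 0.12). Every tumor was above every normal gland for both. Cytosolic ribosomal protein genes stood apart from this, with 13 of 35 higher, 1 lower and a median of 0.13, which turned to -0.08 after centring on the reference genes. Among initiation factors 25 of 44 were higher and 1 lower (median 0.27), and 14 and 7 after centring. The gene that was lower without centring, Eif4e3, is a relative of the cap-binding protein. It had 7.33, 7.77 and 8.09 in tumors against 8.2, 8.47 and 8.58 in normal glands (-0.70, SE 0.11, adjusted p = 8.32e-05). Eif4e itself had 8.88, 9.19 and 9.42 in tumors against 8.10, 8.48 and 8.74 in normal glands (0.70, SE 0.14, adjusted p = 0.000916).

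**Figure D2:**
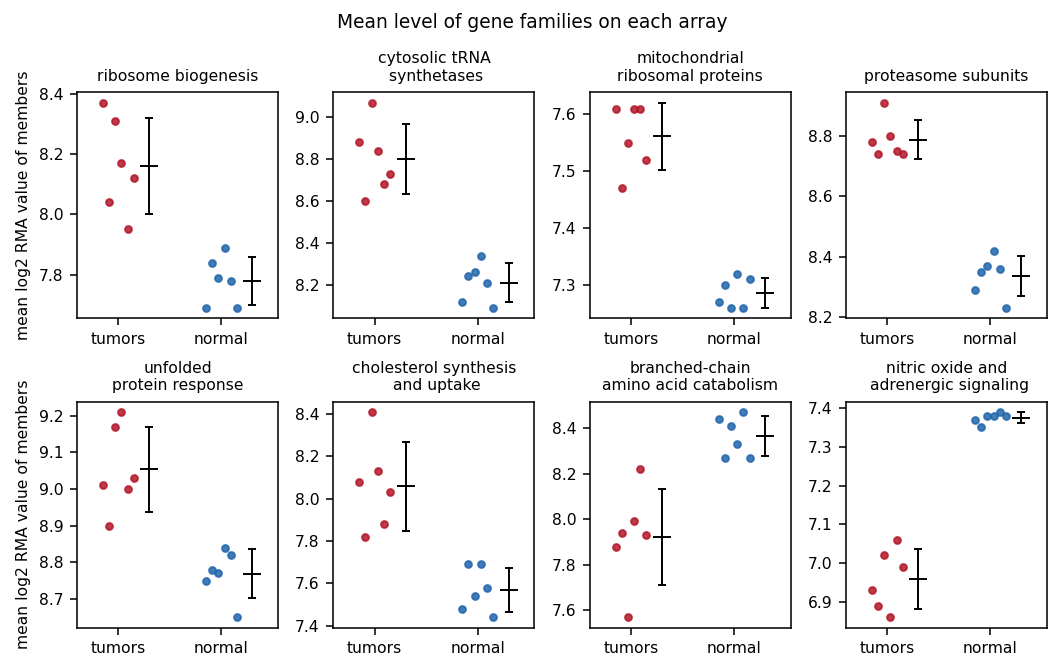
Mean log2 value over the members above the detection level in 8 gene families, 1 point for each of the 6 tumor arrays (left) and 6 normal gland arrays (right), with the group mean and SD beside them. In all 8 panels the groups are apart, with tumors above normal glands in 6 and below them in 2; the vertical axes differ and do not start at 0.

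Genes of protein import into mitochondria (19 of 24 higher, 0 lower, median 0.32) and of the proteasome, which degrades marked proteins (33 of 40 higher, 0 lower, median 0.47), rose as well. For 32 proteasome genes tumors and normal glands did not overlap. Psmc4, an ATPase of the proteasome cap, had 9.02, 9.17 and 9.50 in tumors against 8.16, 8.37 and 8.49 in normal glands, a change of 0.86 (SE 0.07, adjusted p = 8.76e-08), and Psma5, a subunit of its core, changed by 0.76 (SE 0.09, adjusted p = 4.46e-06). Tomm40, the pore of the outer mitochondrial membrane, had 9.00, 9.23 and 9.46 in tumors against 8.35, 8.48 and 8.60 in normal glands (0.76, SE 0.07, adjusted p = 3.16e-07). Cytosolic chaperones were higher in 20 of 43 and lower in 4 (median 0.17, and -0.03 after centring on the reference genes). They were led by the heat shock protein gene Hsph1, with 8.27, 8.68 and 9.33 in tumors against 6.99, 7.52 and 7.76 in normal glands (1.27, SE 0.18, adjusted p = 2.66e-05), and the chaperonin subunits Cct3 and Cct7 (0.90, SE 0.10 for Cct3 and 0.86, SE 0.10 for Cct7). The lower member named by the rule, Hspa12b, is known from endothelial cells and changed by -0.59 (SE 0.11), beside endothelial markers that were lower in 6 of 6.

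The unfolded protein response, which adjusts the endoplasmic reticulum to its load, had members in both directions. Of 34 genes 21 were higher and 4 lower (median 0.36). Higher were genes of translocation and folding, such as Ssr2 of the translocon complex (0.87, SE 0.07, adjusted p = 1.41e-07), Creld2 (0.79, SE 0.10) and the chaperone Hyou1 (0.76, SE 0.10). Lower were Dnajb9 and Herpud1, which act in the removal of misfolded proteins from the reticulum, and, chosen after their values were seen, Derl1 of the same route (-0.37, SE 0.08) and the sensor Atf6 (-0.26, SE 0.09), whose call was lost on leaving out any of 5 arrays (-0.25 to -0.19). Dnajb9 had 8.56, 8.98 and 9.18 in tumors against 9.18, 9.34 and 9.82 in normal glands (-0.50, SE 0.12, adjusted p = 0.00292). Herpud1 had 8.15, 8.42 and 8.67 in tumors against 8.75, 8.86 and 8.97 in normal glands (-0.42, SE 0.08, adjusted p = 0.000314). The groups lay apart for Herpud1 and met at 9.18 for Dnajb9. Hspa5, the main chaperone of the compartment, also chosen after its values were seen, had 10.43, 10.68 and 11.02 in tumors against 9.82, 10.19 and 10.48 in normal glands, with a partial overlap (0.51, SE 0.11, adjusted p = 0.002).

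**Figure D3:**
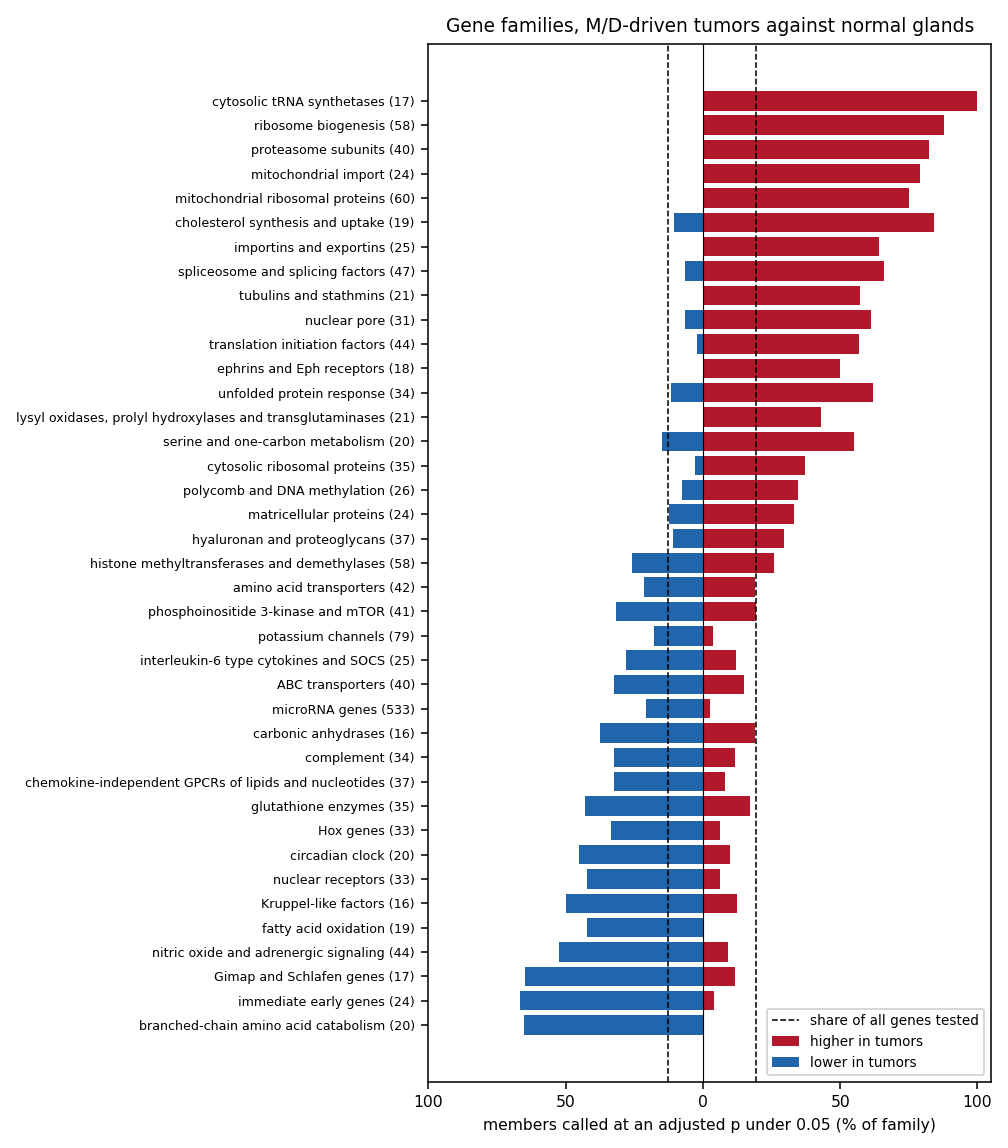
Share of members called higher (right of 0) and lower (left of 0) in tumors at an adjusted p under 0.05, for 39 families with the number of measured members in parentheses. Dashed lines mark the shares of all genes, 19.5% higher and 12.7% lower; families at the top reach 100% higher and those at the bottom 66.7% lower. Families with a median change between 0 and 0.21 turn their direction after centring on the reference genes.

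Genes of the traffic between nucleus and cytoplasm rose, headed by Kpna2, an importin that carries proteins into the nucleus. Its values were 9.56, 10.18 and 10.63 in tumors against 7.50, 7.94 and 8.18 in normal glands, and tumors were 4.79-fold higher (2.26, SE 0.15, adjusted p = 2.07e-08). Of 25 importins and exportins 16 were higher and 0 lower (median 0.42), among them the GTPase Ran (0.80, SE 0.10) and its activator Rangap1 (0.98, SE 0.10). Of 31 nuclear pore genes 19 were higher and 2 lower (median 0.34), with Aaas at 1.07 (SE 0.10) and Nup43 at 1.04 (SE 0.12). Spliceosome genes were higher in 31 of 47 and lower in 3 (median 0.29). After centring on the reference genes 16 were higher and 13 lower. Snrpd3, a core protein of the small nuclear ribonucleoproteins, had 9.64, 9.84 and 10.07 in tumors against 8.74, 9.11 and 9.34 in normal glands (0.78, SE 0.10, adjusted p = 1.22e-05). Srsf5, a splicing regulator, went the other way with 9.50, 9.98 and 10.07 in tumors against 10.20, 10.62 and 10.88 in normal glands (-0.70, SE 0.11, adjusted p = 8.34e-05), again without overlap.

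Chromatin enzymes moved in both directions, sometimes within a pair of relatives. Ezh2, the methyltransferase of polycomb complexes in dividing cells, had 7.99, 8.34 and 8.66 in tumors against 7.42, 7.56 and 7.65 in normal glands (0.80, SE 0.08, adjusted p = 1.34e-06). Its relative Ezh1, which prevails in resting cells, had 8.10, 8.56 and 9.16 in tumors against 9.17, 9.31 and 9.35 in normal glands (-0.63, SE 0.16, adjusted p = 0.00422). The groups did not overlap for either. The maintenance DNA methyltransferase Dnmt1 (0.74, SE 0.09) and the heterochromatin protein Cbx5 (0.55, SE 0.11) were higher, and the polycomb reader Cbx7 was lower (-0.49, SE 0.07). In all, 9 of 26 polycomb and DNA methylation genes were higher and 2 lower (median 0.18, and -0.02 after centring on the reference genes). Histone methyltransferases and demethylases were higher in 15 of 58 and lower in 15 (median 0.06, and -0.14 after centring). The arginine methyltransferase Prmt1 had 8.91, 9.25 and 9.74 in tumors against 8.13, 8.33 and 8.50 in normal glands (0.95, SE 0.10, adjusted p = 2.44e-06), and Smyd5 and Nsd2 changed by 1.15 (SE 0.19) and 1.01 (SE 0.12). Kmt2c, which methylates histone H3 at enhancers, had 7.69, 8.57 and 8.90 in tumors against 9.15, 9.33 and 9.47 in normal glands (-0.86, SE 0.14, adjusted p = 0.000168), with tumor 3 lowest, and its relative Kmt2e changed by -0.58 (SE 0.09).

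**Figure D4:**
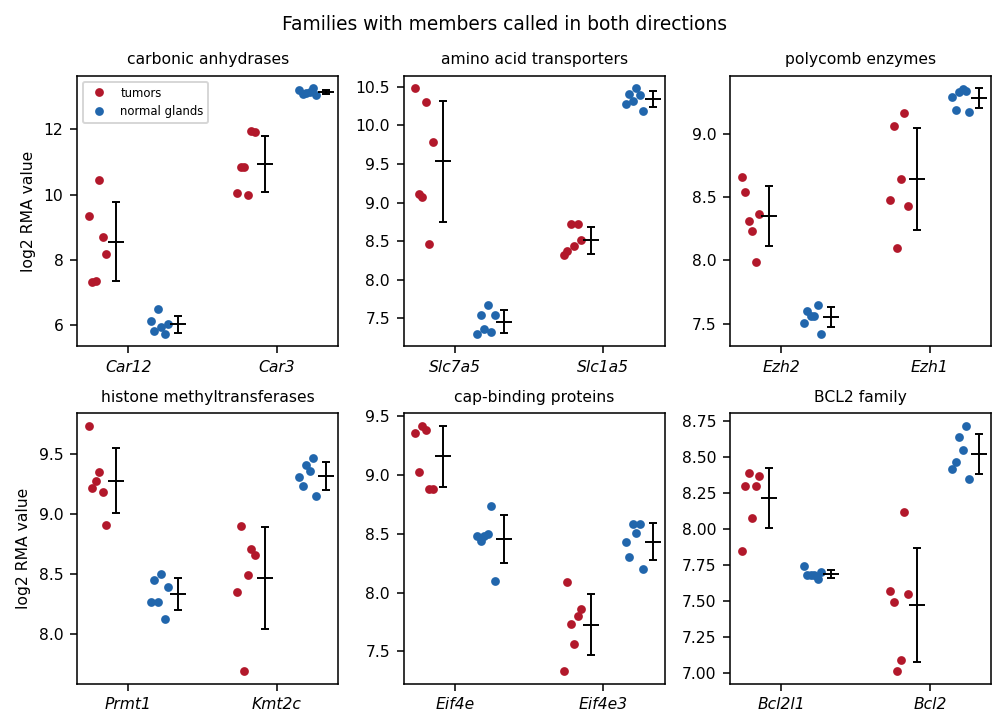
Log2 values of 6 gene pairs from families with members called in both directions, 1 point for each of 6 tumors (red, left) and 6 normal glands (blue, right), with group mean and SD. The first gene of each pair is higher in tumors and the second lower, without overlap in any of the 12 genes.

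Cytoskeletal genes rose among those of microtubules and of actin. Of 21 tubulin and stathmin genes 12 were higher and 0 lower (median 0.35). Tubb2b, a beta-tubulin known from neurons, had 7.66, 8.22 and 8.66 in tumors against 6.4, 6.48 and 6.92 in normal glands (1.63, SE 0.18, adjusted p = 2.2e-06). Tubb2a, a near copy whose probes may share its signal, had 8.66, 9.14 and 9.26 in tumors against 7.93, 8.04 and 8.30 in normal glands (0.98, SE 0.12, adjusted p = 6.68e-06). Stmn1, which takes microtubules apart, had 7.73, 8.68 and 9.05 in tumors against 7.04, 7.12 and 7.29 in normal glands (1.43, SE 0.19, adjusted p = 1.39e-05), and tumor 3 was lowest at 7.73. On the actin side 20 of 45 assembly genes were higher and 3 lower (median 0.17, and -0.04 after centring on the reference genes). They were led by the formin Diaph3, with 7.12, 8.05 and 8.76 in tumors against 5.41, 5.76 and 6.21 in normal glands (2.09, SE 0.22, adjusted p = 1.83e-06), and by the tropomyosin Tpm4 (0.79, SE 0.10).

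Metabolic genes divided between sterol synthesis, which rose, and the burning of fatty acids and branched-chain amino acids, which fell. Of 19 genes of cholesterol synthesis and uptake 16 were higher and 2 lower, with a median of 0.48. Squalene epoxidase (Sqle) had 7.92, 8.27 and 9.05 in tumors against 6.35, 6.75 and 7.26 in normal glands, and tumors were 2.98-fold higher (1.57, SE 0.19, adjusted p = 7.98e-06). The farnesyl diphosphate synthase gene Fdps changed by 1.36 (SE 0.21, adjusted p = 7.78e-05) and the isomerase gene Idi1 by 1.10 (SE 0.18, adjusted p = 0.000124). Insig1, which holds the sterol-sensing factor SREBP in the endoplasmic reticulum and is itself one of its targets, had 7.22, 8.01 and 8.46 in tumors against 8.48, 8.97 and 9.07 in normal glands (-0.96, SE 0.17, adjusted p = 0.000306). It was below every normal gland in every tumor. The other lower gene, Sc5d, and the remaining genes in this paragraph were chosen after their values were seen. Sc5d changed by -0.33 (SE 0.11), a call lost on leaving out any of 7 arrays (-0.33 to -0.24), the transcription factor Srebf2 by 0.49 (SE 0.09), and Hmgcs1 at the head of the pathway by 0.50 (SE 0.19, adjusted p = 0.0519), which did not pass, but did on leaving out any of 4 arrays (0.55 to 0.60).

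Among 16 of these 19 genes with a RefSeq promoter entry, 15 (93.8%) hold CCAAT on either strand within 250 bases before to 50 after a start, a box bound by NF-Y, against 41.1% of 27025 genes. The 150 bases before the start of 4 members that were higher in tumors are shown because the box lies close to their starts, once for Cyp51 and repeatedly for the other 3, with CCAAT, or ATTGG where it lies on the other strand, in capitals (RefSeq, GRCm38.p6). They are at chr13:8885456-8885605, plus strand, for Idi1, chr5:4104698-4104847, minus strand, for Cyp51, chr7:143830064-143830213, plus strand, for Dhcr7 and chr1:169969206-169969355, minus strand, for Hsd17b7.
Idi1: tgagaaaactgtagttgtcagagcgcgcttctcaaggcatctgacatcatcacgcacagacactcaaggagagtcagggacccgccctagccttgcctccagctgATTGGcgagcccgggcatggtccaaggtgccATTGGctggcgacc
Cyp51: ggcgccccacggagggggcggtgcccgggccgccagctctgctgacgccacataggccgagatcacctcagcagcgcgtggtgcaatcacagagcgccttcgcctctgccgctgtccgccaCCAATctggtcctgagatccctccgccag
Dhcr7: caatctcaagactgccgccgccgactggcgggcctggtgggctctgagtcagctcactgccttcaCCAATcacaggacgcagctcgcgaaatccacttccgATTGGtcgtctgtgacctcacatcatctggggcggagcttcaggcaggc
Hsd17b7: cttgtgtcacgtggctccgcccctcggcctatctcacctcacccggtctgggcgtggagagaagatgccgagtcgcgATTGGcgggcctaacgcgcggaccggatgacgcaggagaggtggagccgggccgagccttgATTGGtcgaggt
Cyp51, Dhcr7 and Hsd17b7 were chosen after their values were seen. The stretch shown for Dhcr7 is before the third of its 3 listed starts, and the 150 bases before each of the other 2 hold no CCAAT on either strand. Dhcr7 acts at the last step of synthesis and had 7.50, 7.61 and 7.80 in tumors against 6.97, 7.00 and 7.09 in normal glands (0.61, SE 0.05, adjusted p = 2.44e-07). Cyp51, which demethylates lanosterol, had 7.29, 7.91 and 8.48 in tumors against 6.76, 6.95 and 7.07 in normal glands (0.90, SE 0.16, adjusted p = 0.000333), and Hsd17b7, a ketoreductase of the same pathway, changed by 0.86 (SE 0.19, adjusted p = 0.00182) with overlapping groups.

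Breakdown of branched-chain amino acids was lower in 13 of 20 genes and higher in 0, against 12.7% lower among all genes, with a median of -0.47. Aldh6a1, a mitochondrial dehydrogenase of valine breakdown, had 7.30, 8.01 and 8.92 in tumors against 10.07, 10.30 and 10.66 in normal glands, and was 4.88-fold lower in tumors (-2.29, SE 0.22, adjusted p = 7.72e-07). The valine enzyme Hibch changed by -0.77 (SE 0.15, adjusted p = 0.000689) and the leucine enzyme Ivd by -0.75 (SE 0.12, adjusted p = 0.000129). Bcat1, the cytosolic transaminase that starts the pathway, chosen after its values were seen, was not called, with 6.33, 6.59 and 7.83 in tumors against 6.26, 6.33 and 6.49 in normal glands (0.47, SE 0.19, adjusted p = 0.0676), though it was without tumor 2, 4 or 5 (0.54 to 0.57). Fatty acid oxidation genes were lower in 8 of 19 and higher in 0 (median -0.22), among them Ehhadh of peroxisomes (-1.03, SE 0.21) and the carnitine acetyltransferase Crat (-1.0, SE 0.14). Pck1, which makes phosphoenolpyruvate for glycerol and glucose synthesis, had 6.84, 7.00 and 9.10 in tumors against 10.58, 10.81 and 10.91 in normal glands and was 9.85-fold lower (-3.30, SE 0.38, adjusted p = 3.53e-06). These genes are expressed in fat cells among other tissues. Fat cell markers were lower in 6 of 6, with group ranges of their mean that did not overlap, and their part was not tested.

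One-carbon metabolism, which feeds nucleotide synthesis from serine, was higher in 11 of 20 genes and lower in 3 (median 0.41). Shmt2, the mitochondrial serine hydroxymethyltransferase, had 8.59, 9.13 and 9.83 in tumors against 7.67, 7.83 and 8.17 in normal glands (1.25, SE 0.17, adjusted p = 1.46e-05), and Mthfd1 changed by 0.73 (SE 0.11, adjusted p = 8.18e-05). Aldh1l1, which removes folate-bound one-carbon units by oxidation, had 6.65, 6.81 and 7.04 in tumors against 7.58, 7.70 and 7.71 in normal glands (-0.84, SE 0.11, adjusted p = 1.03e-05). Purine synthesis genes were higher in 6 of 12 and lower in 0, with Ppat, the committed step, at 0.64 (SE 0.10). Polyamine genes were higher in 5 of 11 and lower in 0, with the spermidine synthase gene Srm at 8.51, 8.81 and 9.30 in tumors against 7.69, 7.88 and 8.21 in normal glands (0.95, SE 0.13, adjusted p = 2.25e-05) and spermine oxidase, Smox, at 0.76 (SE 0.14). The rate-limiting enzyme Odc1 and its regulator Azin1, chosen after their values were seen, were not called (0.36, SE 0.18, adjusted p = 0.155 for Odc1 and -0.06, SE 0.16, adjusted p = 0.826 for Azin1).

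Defence against oxidants was divided. Of 35 glutathione enzymes 15 were lower and 6 higher (median -0.21, and -0.06 without tumor 2). Gstz1, a transferase that also acts in tyrosine breakdown, had 7.33, 7.72 and 8.60 in tumors against 9.62, 9.72 and 9.93 in normal glands, and Gstm1, whose probes can be shared with other mu-class genes, had 8.35, 8.62 and 9.86 in tumors against 10.48, 10.52 and 10.61 in normal glands. Tumors lay below normal glands throughout for both (-1.95, SE 0.17, adjusted p = 1.95e-07 for Gstz1 and -1.74, SE 0.19, adjusted p = 2.21e-06 for Gstm1). The plasma peroxidase Gpx3 changed by -1.47 (SE 0.16), while Gss, the synthase of glutathione, rose with 7.35, 7.63 and 7.81 in tumors against 6.85, 6.92 and 7.03 in normal glands (0.69, SE 0.06, adjusted p = 2.77e-07). Of 20 targets of the oxidant sensor NRF2 and pentose phosphate genes 7 were higher and 1 lower (median 0.16, and -0.05 after centring on the reference genes). Heme oxygenase, Hmox1, had 9.04, 9.19 and 10.34 in tumors against 7.84, 8.0 and 8.16 in normal glands (1.52, SE 0.25, adjusted p = 0.000121). Thioredoxin, Txn1, had 10.45, 10.54 and 10.74 in tumors against 9.85, 9.89 and 9.96 in normal glands (0.66, SE 0.06, adjusted p = 2.76e-07). The NRF2 targets Nqo1 and Slc7a11, chosen after their values were seen, were not called (0.56, SE 0.40, adjusted p = 0.318 for Nqo1 and 0.16, SE 0.24, adjusted p = 0.674 for Slc7a11), and Nqo1 spread from 6.28 to 9.16 among tumors.

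Transporters and surface enzymes included relatives that moved in opposite directions. Carbonic anhydrases, which interconvert carbon dioxide and bicarbonate, were higher in 3 of 16 (18.8%) and lower in 6 (37.5%), against 19.5% and 12.7% of all genes. Car12, an enzyme anchored on the outer cell surface, had 7.33, 8.44 and 10.46 in tumors against 5.74, 5.99 and 6.49 in normal glands and was 5.8-fold higher in tumors (2.54, SE 0.47, adjusted p = 0.000426). Car9, its hypoxia-regulated relative, changed by 1.60 (SE 0.32, adjusted p = 0.000805). Car3, the enzyme of fat and muscle cytosol, had 9.99, 10.84 and 11.94 in tumors against 13.06, 13.13 and 13.25 in normal glands and was 4.63-fold lower (-2.21, SE 0.27, adjusted p = 6.72e-06), and mitochondrial Car5b changed by -1.74 (SE 0.29, adjusted p = 0.000142). Beside the fall of Car3, fat cell markers were lower in 6 of 6 (7.08 to 8.73 in tumors, 10.55 to 10.81 in normal glands), and 0 of 6 skeletal muscle markers passed (6.86 to 9.38 in tumors, 6.96 to 9.68 in normal glands). The part of fat cells was not tested. Car2, chosen after its values were seen, spread from 6.29 to 10.16 in tumors and was not called (1.00, SE 0.44, adjusted p = 0.0964), although it was without tumor 3 (1.41).

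Amino acid transporters were higher in 8 of 42 and lower in 9 (median 0.03, and -0.18 after centring on the reference genes). Slc7a5, the light chain of the leucine transporter LAT1, had 8.47, 9.45 and 10.48 in tumors against 7.30, 7.45 and 7.67 in normal glands and was 4.22-fold higher (2.08, SE 0.28, adjusted p = 1.58e-05). Slc6a15, a carrier of branched-chain amino acids, ranged from 5.68 to 10.36 in tumors, highest in tumor 1, and from 5.23 to 5.60 in normal glands (1.87, SE 0.52, adjusted p = 0.00965). The neutral amino acid carrier Slc1a5, known as a glutamine transporter, had 8.32, 8.47 and 8.72 in tumors against 10.19, 10.35 and 10.48 in normal glands. Its tumors were 3.57-fold lower and varied little (-1.83, SE 0.13, adjusted p = 3.07e-08). Slc7a10 and Slc36a2, a pair of carriers known as surface markers of fat cells, changed by -1.87 (SE 0.14, adjusted p = 4.06e-08) and -1.85 (SE 0.26, adjusted p = 3.01e-05).

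Potassium channels were lower in 14 of 79 and higher in 3 (median 0.02, and -0.18 after centring on the reference genes). These are 17.7% and 3.8%, against 12.7% and 19.5% of all genes. Of the 48 above the detection level 8 were lower, near the share of all genes above it (16.9%). Kcnn4, a calcium-activated channel, had 8.27, 9.05 and 9.85 in tumors against 7.64, 7.91 and 8.12 in normal glands (1.14, SE 0.19, adjusted p = 0.000125). Kcna1 and Kcnn3 changed by -0.95 (SE 0.08) and -0.85 (SE 0.09). Of 40 ABC transporters 13 were lower and 6 higher (median -0.09). Abca8a had 5.70, 6.23 and 6.69 in tumors against 8.34, 9.10 and 9.21 in normal glands (-2.78, SE 0.21, adjusted p = 4.76e-08). Its neighbour in the family, Abca6, averaged under the detection level in tumors, with 5.18 ± 0.26 in tumors and 8.05 ± 0.36 in normal glands (SD, n = 6 each). Among the 6 higher was Abcf2, a member that acts with ribosomes and spans no membrane, with 8.79, 9.07 and 9.42 in tumors against 8.05, 8.2 and 8.37 in normal glands (0.90, SE 0.10, adjusted p = 2.25e-06). The glycerol channel Aqp7 of fat cells was 6.69-fold lower (-2.74, SE 0.24, adjusted p = 1.95e-07) and the water channel Aqp1 of endothelium 3.12-fold lower (-1.64, SE 0.23, adjusted p = 2.22e-05), beside fat cell and endothelial markers that were lower in 6 of 6 each.

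Immediate early genes, which respond to stimuli within minutes through serum response factor and cAMP, were lower in a larger share (66.7%) than any other family counted here. Of 24 genes 16 were lower and 1 higher (median -0.79), and for 15 of them tumors and normal glands did not overlap. Fosb, a partner in the AP-1 factor, had 9.75, 10.09 and 10.52 in tumors against 11.53, 11.76 and 12.10 in normal glands and was 3.22-fold lower in tumors (-1.69, SE 0.14, adjusted p = 1.7e-07). The orphan receptor Nr4a3 had 6.07, 6.85 and 7.05 in tumors against 7.81, 8.14 and 8.35 in normal glands (-1.46, SE 0.20, adjusted p = 1.76e-05). Klf4 had 8.12, 8.36 and 9.52 in tumors, against a lowest value of 9.69 and a median of 9.84 in normal glands (-1.31, SE 0.18, adjusted p = 2e-05), so that the highest, tumor 6, came close to them. The family mean was 8.66 to 8.88 on tumor arrays, 9.09 to 9.45 in hyperplastic glands and 9.36 to 9.60 in normal glands. The paper gives no time between death and stabilization of RNA. The part of tissue handling, or of the lower fat cell, endothelial and lymph node markers, was not tested.

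The following members were chosen after their values were seen. Fos had 9.50, 10.79 and 11.14 in tumors against 11.53, 11.71 and 11.91 in normal glands (-1.08, SE 0.26, adjusted p = 0.00371), and Jun had 9.72, 10.45 and 10.68 in tumors against 11.21, 11.35 and 11.61 in normal glands (-1.01, SE 0.16, adjusted p = 0.000113). Tumor 3 was lowest for both, and every tumor lay below every normal gland. Atf3 (-1.11, SE 0.19), the antiproliferative gene Btg2 (-1.25, SE 0.22), Ier2 (-1.01, SE 0.17), the mRNA-decay factor Zfp36 (-0.95, SE 0.15), Nr4a2 (-1.08, SE 0.21) and Jund (-0.61, SE 0.09) fell too, and Nr4a1 did so with overlapping groups (-0.85, SE 0.18, adjusted p = 0.00127). In contrast, the growth factor-responsive Egr2, Egr3 and Egr4 were not called (-0.21, SE 0.19, adjusted p = 0.436 for Egr2, -0.19, SE 0.13, adjusted p = 0.303 for Egr3 and 0.01, SE 0.08, adjusted p = 0.916 for Egr4, with Egr2 called without tumor 1, at -0.40), nor was Myc, with 9.10, 9.27 and 9.61 in tumors against 9.14, 9.28 and 9.58 in normal glands (0.01, SE 0.11, adjusted p = 0.979). The group ranges of Myc overlapped almost fully. The member that was higher, Mafg (0.19, SE 0.07, adjusted p = 0.0471), lost the call on leaving out any of 10 arrays (0.16 to 0.20) and changed by -0.02 after centring on the reference genes. Among 21 members with a promoter entry, 2 (9.52%) hold the cAMP response element TGACGTCA, Btg2 and Maff, against 2.03% of all genes, and 2 (9.52%) hold a CArG box, Egr2 and Zfp36, against 1.81%.

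**Figure D5:**
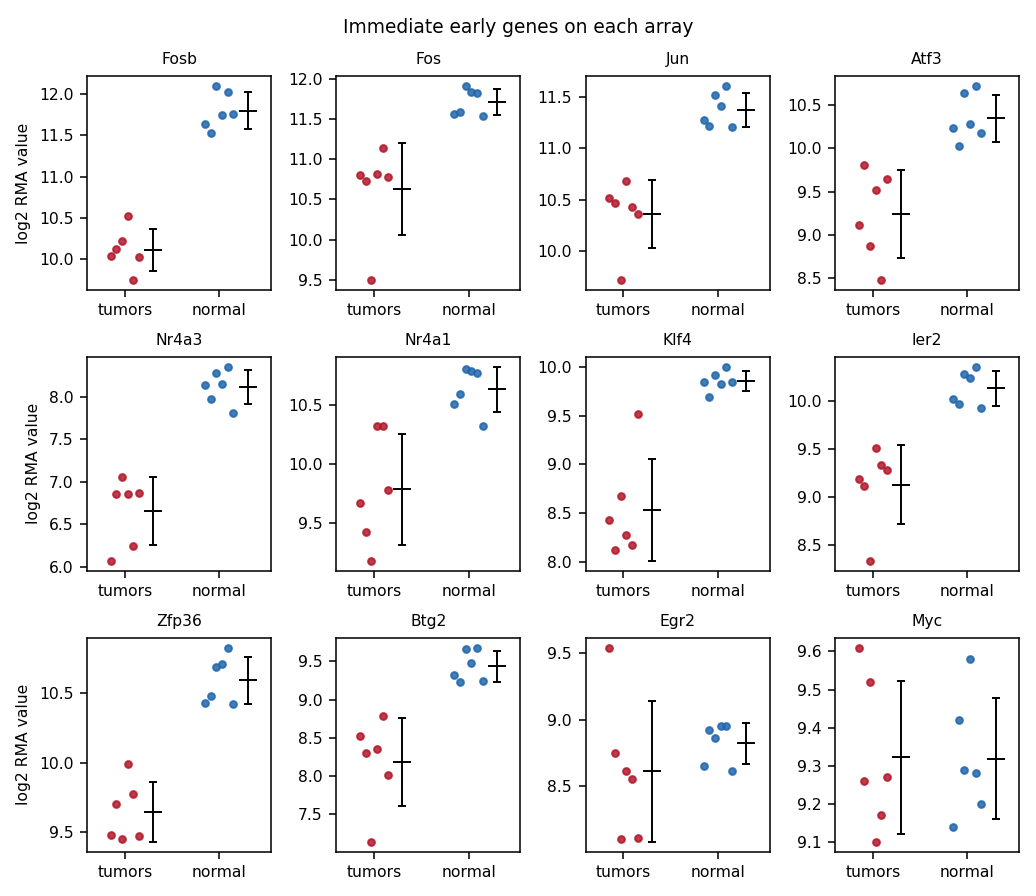
Log2 values of 12 immediate early genes on each of 6 tumor arrays (left) and 6 normal gland arrays (right), with the group mean and SD. Tumors lie below all normal glands in 9 panels, meet them at 10.33 for Nr4a1, and overlap them for Egr2 and Myc; the vertical axes differ and do not start at 0.

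Circadian clock genes, whose products drive a daily cycle of transcription, were lower in part. Of 20 genes 9 were lower and 2 higher (median -0.34). Nr1d1, the heme-binding repressor REV-ERB alpha, had 7.97, 8.62 and 9.33 in tumors against 9.97, 10.11 and 10.28 in normal glands (-1.52, SE 0.17, adjusted p = 2.73e-06). The repressor Cry2 had 7.05, 7.23 and 7.68 in tumors against 8.30, 8.50 and 8.68 in normal glands (-1.22, SE 0.10, adjusted p = 1.7e-07), and the activator Rora changed by -0.78 (SE 0.10). No tumor overlapped a normal gland for these. Clock and Arntl, chosen after their values were seen, differed by -0.07 (SE 0.12, adjusted p = 0.724) and -0.12 (SE 0.14, adjusted p = 0.577). The Arntl relative Arntl2, also chosen so, changed by 0.50 (SE 0.15) and Tipin by 0.95 (SE 0.14, adjusted p = 5.72e-05), a gene that also works at replication forks. The hour of collection is not given in the sources used here.

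Kruppel-like factors were lower in 8 of 16 and higher in 2 (median -0.24). Klf2, a factor of quiescent T cells and endothelium, had 7.66, 7.88 and 8.21 in tumors against 8.83, 9.11 and 9.26 in normal glands (-1.15, SE 0.14, adjusted p = 5.24e-06). Klf5, a factor of proliferating epithelium, had 7.67, 8.14 and 8.99 in tumors against 7.02, 7.24 and 7.48 in normal glands (0.92, SE 0.24, adjusted p = 0.00569). Klf2, Klf4 and Klf6 are also counted among the immediate early genes. Likewise, the immediate early gene Nr4a3 and the clock gene Nr1d1 are counted again among nuclear receptors, so these family counts are not independent. Nuclear receptors were lower in 14 of 33 and higher in 2 (median -0.16, -0.23 without tumor 6 and -0.25 without tumors 3 and 6), led by Pparg, the master regulator of fat cells, with 6.24, 6.73 and 7.66 in tumors against 9.67, 9.79 and 10.03 in normal glands, 7.54-fold lower (-2.92, SE 0.23, adjusted p = 6.73e-08). Thrb, a thyroid hormone receptor, chosen after its values were seen, changed by -1.07 (SE 0.14, adjusted p = 1.46e-05). The vitamin D receptor gene Vdr, also chosen after its values were seen, was higher (0.73, SE 0.25, adjusted p = 0.0351), lowest in tumor 3 at 7.62, and lost the call on leaving out any of 7 arrays (0.59 to 0.74). Cebpd and Cebpa, which act with Pparg in fat cells, were lower. Cebpd had 6.72, 7.49 and 7.93 in tumors against 8.97, 9.23 and 9.77 in normal glands (-1.87, SE 0.19, adjusted p = 9.86e-07), and Cebpa had 7.42, 8.03 and 8.90 in tumors against 9.65, 9.70 and 9.79 in normal glands (-1.67, SE 0.22, adjusted p = 1.4e-05).

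Hox genes, which record position along the body, were lower in 11 of 33 and higher in 2 (median -0.05). The falls were led by the C cluster. Hoxc8 had 5.96, 6.23 and 6.69 in tumors against 7.90, 8.07 and 8.48 in normal glands (-1.82, SE 0.20, adjusted p = 2.16e-06). Hoxc10 averaged under the detection level in tumors with 4.84 ± 0.49 in tumors and 6.60 ± 0.13 in normal glands (SD, n = 6 each), and Hoxa5 changed by -0.78 (SE 0.11). Tumors lay below every normal gland for all 3. The labels do not say which gland each tumor or normal sample came from, and the part of body site was not tested. Of the higher pair, chosen after their values were seen, Hoxb2 changed by 0.38 (SE 0.10). Hoxa11 averaged under the detection level in both groups, with 5.00 ± 0.06 in tumors and 4.81 ± 0.05 in normal glands (SD, n = 6 each), and its difference was -0.02 after centring on the reference genes.

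Signaling through cyclic nucleotides, nitric oxide and adrenergic receptors was lower in 23 of 44 genes and higher in 4 (median -0.18), with family means of 6.86 to 7.06 on tumor arrays and 7.35 to 7.39 on normal gland arrays. Pde3b, the phosphodiesterase through which insulin restrains lipolysis, had 5.71, 6.44 and 7.80 in tumors against 8.86, 9.37 and 9.78 in normal glands and was 6.45-fold lower (-2.69, SE 0.29, adjusted p = 2.25e-06). The adenylyl cyclase Adcy5 (-1.31, SE 0.15, adjusted p = 2.94e-06) and the phosphodiesterase Pde8a (-1.30, SE 0.17, adjusted p = 1.05e-05) fell as well, without overlap. Phosphoinositide 3-kinase and mTOR genes were lower in 13 of 41 and higher in 8 (median -0.16). These are 31.7% and 19.5%, against 12.7% and 19.5% of all genes, so the share called higher was that of all genes. The lipid phosphatase Inpp4b, a brake on this pathway, had 5.42, 5.86 and 6.33 in tumors against 7.6, 8.23 and 8.34 in normal glands and was 4.75-fold lower (-2.25, SE 0.21, adjusted p = 4.97e-07), and the insulin receptor substrate Irs2 changed by -1.13 (SE 0.14, adjusted p = 5.93e-06). Ddit4, a stress-induced inhibitor of mTOR, had 8.79, 9.24 and 10.32 in tumors against 7.56, 7.66 and 7.86 in normal glands (1.67, SE 0.21, adjusted p = 8.8e-06), and Sesn1, another inhibitor, changed by -0.87 (SE 0.10). Rps6ka6, a kinase of the RSK group, rose by 1.18 (SE 0.17).

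Cytokines of the interleukin-6 type moved apart. Of 25 family genes 7 were lower and 3 higher (median -0.09). Il6 stood at 5.41, 5.45, 7.2, 6.91, 4.72 and 7.10 in tumors 1 to 6, against 8.14, 8.32, 8.40, 8.44, 8.89 and 7.49 in normal glands 1 to 6, and was 4.44-fold lower (-2.15, SE 0.49, adjusted p = 0.0022). Lif, which signals through the same receptor subunit gp130, had 7.06, 7.74 and 8.19 in tumors against 6.70, 6.86 and 7.01 in normal glands (0.84, SE 0.20, adjusted p = 0.00327). Its receptor gene Lifr had 7.89, 8.89 and 9.36 in tumors against 9.64, 9.92 and 10.22 in normal glands (-1.20, SE 0.23, adjusted p = 0.000523). The groups did not overlap for any of these. Stat4, a transducer of lymphocytes, changed by -1.81 (SE 0.20), beside lymph node markers that were lower in 5 of 5. Stat3 and Socs3, chosen after their values were seen, were not called (0.21, SE 0.09, adjusted p = 0.0863 for Stat3 and -0.42, SE 0.19, adjusted p = 0.109 for Socs3), though Stat3 was without tumor 1 (0.26) and Socs3 without tumor 3 (-0.63).

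Growth factor and guidance receptors at the cell surface were mixed. Ephrins and their Eph receptors, which sort cells on contact, were higher in 9 of 18 and lower in 0 (median 0.30). Epha2 had 8.30, 8.73 and 9.40 in tumors against 7.41, 7.48 and 7.66 in normal glands (1.24, SE 0.14, adjusted p = 3.33e-06), Epha1 changed by 0.71 (SE 0.15, adjusted p = 0.000984) and the ligand Efna4 by 0.65 (SE 0.08, adjusted p = 5.22e-06). Among fibroblast growth factor genes 5 of 26 were lower and 1 higher (19.2% and 3.85%, against 12.7% and 19.5% of all genes). Of the 20 above the detection level 4 were lower, near the share of all genes above it (16.9%). The coreceptor Klb averaged under the detection level in tumors, with 5.30 ± 0.46 in tumors and 8.19 ± 0.25 in normal glands (SD, n = 6 each). Fgf2 had 6.79, 7.06 and 7.26 in tumors against 7.75, 7.90 and 8.08 in normal glands (-0.86, SE 0.09, adjusted p = 2.44e-06). Of 35 other receptor tyrosine kinase genes 10 were lower and 7 higher, with the neurotrophin receptor Ntrk2 at -1.49 (SE 0.15, adjusted p = 7.73e-07) and hepatocyte growth factor, Hgf, at -1.43 (SE 0.18, adjusted p = 8.79e-06). Pdgfa, a growth factor for stromal cells, had 7.95, 8.38 and 8.58 in tumors against 7.37, 7.56 and 7.79 in normal glands (0.80, SE 0.09, adjusted p = 5.5e-06). In the BCL2 family, Bcl2l1, a guardian against apoptosis, had 7.85, 8.30 and 8.39 in tumors against 7.65, 7.68 and 7.74 in normal glands (0.53, SE 0.08, adjusted p = 8.8e-05). Its relative Bcl2 had 7.01, 7.52 and 8.12 in tumors against 8.35, 8.51 and 8.72 in normal glands (-1.05, SE 0.15, adjusted p = 4.15e-05).

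Matrix genes included those of hyaluronan and of the cross-linking of collagen. Has2, the main hyaluronan synthase, had 8.2, 9.22 and 10.78 in tumors against 7.42, 7.67 and 7.89 in normal glands and was 3.38-fold higher (1.76, SE 0.30, adjusted p = 0.00019). Itih5, of the inter-alpha-trypsin inhibitor heavy chains that bind hyaluronan, had 7.12, 8.04 and 8.88 in tumors against 10.05, 10.30 and 10.46 in normal glands (-2.34, SE 0.25, adjusted p = 1.47e-06). Tnfaip6, the enzyme that transfers heavy chains to it, was lowest in tumor 5 at 6.08 (-1.53, SE 0.43, adjusted p = 0.01). Together 11 of 37 hyaluronan and proteoglycan genes were higher and 4 lower (median 0.10, and -0.11 after centring on the reference genes). Lysyl oxidases, prolyl hydroxylases and transglutaminases, which modify and link collagen, were higher in 9 of 21 and lower in 0 (median 0.62, and 0.24 without tumor 6). Plod2, a lysyl hydroxylase, had 7.90, 8.72 and 10.15 in tumors against 6.51, 6.90 and 7.08 in normal glands (1.96, SE 0.32, adjusted p = 0.000138). Loxl3 had 8.30, 8.35 and 10.24 in tumors against 7.18, 7.35 and 7.44 in normal glands, with tumor 3 highest (1.39, SE 0.25, adjusted p = 0.000303). The prolyl hydroxylase subunit P4ha3 changed by 0.93 (SE 0.14, adjusted p = 5.56e-05).

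Matricellular proteins, which sit in matrix and modulate cells, were higher in 8 of 24 and lower in 3 (median 0.14, and -0.07 after centring on the reference genes). Tenascin C, Tnc, stood at 9.65, 8.99, 11.39, 9.78, 9.35 and 10.76 in tumors 1 to 6, against 7.79, 7.93, 7.85, 7.94, 8.18 and 7.75 in normal glands 1 to 6 (2.08, SE 0.36, adjusted p = 0.000227). Tumors 3 and 6 were highest, and the other 4 also exceeded all normal glands. Ccn2, a target of the mechanosensitive factors YAP and TAZ, changed by 1.36 (SE 0.27, adjusted p = 0.000756). Smoc1 had 6.18, 7.13 and 7.44 in tumors against 8.52, 8.64 and 8.88 in normal glands (-1.70, SE 0.20, adjusted p = 4e-06), and Sparcl1 had 9.48, 10.14 and 11.02 in tumors against 11.58, 11.83 and 11.94 in normal glands (-1.55, SE 0.20, adjusted p = 1.45e-05). Every tumor lay below every normal gland for both. Fibulin, elastin and microfibril genes were higher in 3 of 15 and lower in 2 (median 0.02, and -0.19 after centring on the reference genes), shares near those of all genes. The 2 that fell, both named by the rule, were Efemp1 and Ltbp4 (-2.40, SE 0.38, adjusted p = 9.13e-05 for Efemp1 and -0.95, SE 0.06, adjusted p = 2.07e-08 for Ltbp4), and tumors 3 and 6 were nearest to normal glands for Efemp1, at 10.02 and 9.50.

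Families expressed mainly by leukocytes and vessels had more lower than higher members, alongside the lymph node and endothelial markers given above, whose part was not tested. Gimap and Schlafen genes, guanosine triphosphatases and growth regulators of lymphocytes, were lower in 11 of 17 and higher in 2 (median -0.44). Gimap6 had 6.4, 6.62 and 7.16 in tumors against 8.46, 8.87 and 8.93 in normal glands (-2.10, SE 0.17, adjusted p = 1.11e-07), and Gimap3 and Gimap8 changed by -2.62 (SE 0.25) and -2.22 (SE 0.22). Receptors for lipids and nucleotides were lower in 12 of 37 and higher in 3 (median -0.08, and -0.23 without tumors 3 and 6). Gpr18 had 5.91, 6.12 and 6.94 in tumors against 7.6, 8.26 and 8.68 in normal glands (-1.91, SE 0.26, adjusted p = 2.1e-05). S1pr1, which guides lymphocytes out of nodes and stabilises vessels, had 6.91, 7.28 and 7.99 in tumors against 8.13, 8.39 and 8.50 in normal glands (-1.06, SE 0.15, adjusted p = 3.94e-05). S1pr2 was higher instead (0.38, SE 0.08, adjusted p = 0.00157).

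The measured complement genes, which mark targets for phagocytes and lysis, were more often lower than higher. Of 34 genes 11 were lower and 4 higher (median -0.07), and without tumors 3 and 6 the counts were 12 lower and 0 higher. C1qa and C1qc, made by macrophages, rose. C1qa had 9.13, 9.38 and 10.45 in tumors against 8.51, 8.98 and 9.13 in normal glands (0.66, SE 0.20, adjusted p = 0.0162), and C1qc had 8.35, 8.58 and 9.69 in tumors against 7.84, 8.16 and 8.30 in normal glands (0.62, SE 0.19, adjusted p = 0.0189). The groups met at 9.13 for C1qa and were 0.05 log2 units apart for C1qc. Without tumors 3 and 6 neither passed (0.39 and 0.36). Tumor 3, which had the highest macrophage marker mean (11.26), was also highest for both. C1qa is itself 1 of the 4 markers in this mean, so the 2 are not independent. Cd55, which shields cells from complement, had 7.83, 8.82 and 9.54 in tumors against 10.73, 10.80 and 11.03 in normal glands and was 4.36-fold lower (-2.12, SE 0.23, adjusted p = 2.5e-06). Hc, the gene of component C5, changed by -1.85 (SE 0.32, adjusted p = 0.000187), and the C1r gene C1rb, a near copy of its neighbour, by -1.61 (SE 0.20, adjusted p = 9.51e-06).

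MicroRNA genes were lower in 111 of 533 and higher in 14 (20.8% and 2.63%, median -0.05). Of the 236 above the detection level 79 were lower and 8 higher, where 16.9% of all genes above it were lower and 27.2% higher. The arrays read the transcript of the gene, and the mature microRNA was not measured. The negative control probe sets, which match no transcript, were lower in 14.2% of 5222 and higher in 2.05%, shares in the same direction, and clusters without a gene name were lower in 18.1% of 29537. Of the 3 falls named by the rule, 2 came from 1 cluster on chromosome 8, from 84208563 to 84208896 on the plus strand (GRCm38.p6), where Mir23a, Mir27a and Mir24-2 lie side by side. Their mature products, and those of Mir99a and Mir100, which share a seed, are shown with the seed (bases 2 to 8) in capitals (RefSeq).
miR-23a-3p: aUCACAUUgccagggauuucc
miR-27a-3p: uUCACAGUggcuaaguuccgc
miR-24-3p: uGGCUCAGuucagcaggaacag
miR-99a-5p: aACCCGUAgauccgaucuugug
miR-100-5p: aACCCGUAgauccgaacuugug
Of all microRNA genes, 440 of 533 matched a RefSeq entry.

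Mir23a had 6.00, 6.77 and 7.34 in tumors against 7.96, 8.62 and 9.09 in normal glands and was 3.58-fold lower in tumors (-1.84, SE 0.28, adjusted p = 6.32e-05). Mir27a had 7.16, 7.51 and 7.98 in tumors against 8.62, 9.17 and 9.48 in normal glands (-1.57, SE 0.25, adjusted p = 0.000104), and its group ranges, like those of Mir23a, were apart. Mir24-2, chosen after its values were seen, changed by -1.02 (SE 0.18, adjusted p = 0.000209), so that all 3 genes of the cluster fell. Mir99a on chromosome 16 and Mir100 on chromosome 9, also chosen after their values were seen, averaged under the detection level in tumors, where Mir99a had 4.84 ± 0.60 in tumors and 6.39 ± 0.25 in normal glands and Mir100 had 4.83 ± 0.14 in tumors and 5.50 ± 0.14 in normal glands (SD, n = 6 each). Mir1938, the largest fall among microRNA genes, had 6.90, 7.92 and 9.05 in tumors against 9.57, 9.83 and 10.43 in normal glands (-2.0, SE 0.31, adjusted p = 8.29e-05), with tumor 4 highest at 9.05. The rule named 1 rise, Mir665 (0.47, SE 0.10, adjusted p = 0.00199). Olfactory and vomeronasal receptor genes, a family with no known use in this tissue, were higher in 32 of 1217 and lower in 7 (2.63% and 0.575%, median 0.03), and 658 were lower after centring on the reference genes.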

How the data were processed

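RNA of 18 samples, in 3 groups of 6, was hybridised to Affymetrix mouse whole-transcript arrays, 1 sample per array. The deposited values are log2 intensities that the authors made by robust multi-array averaging (RMA), with background correction, quantile normalization and 1 value per transcript cluster. Expression Console and Partek are named in the submitters' processing notes, without versions. The table held 65535 entries, of which 58803 are transcript clusters and 6732 controls, and a second table held the same values for 58776 of them. Autosomes after 16 had 2 entries, so their genes were not analysed here. Gene names came from the deposited table. Clusters with 1 symbol (27309) were used, taking the cluster with the highest mean for 198 genes, and gave 27030 genes; clusters with several symbols (1957) or none (29537) were left out. Array medians lay between 5.31 and 5.51. For microarrays the number of arrays limits the precision.

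With limma 3.58.1 (R 4.3.3), the 3 group means were estimated from all 18 arrays together with empirical Bayes moderation, and p-values of the contrast of tumors minus normal glands were adjusted by Benjamini-Hochberg over 27030 genes. Genes with an adjusted p under 0.05 were called, and the threshold of 4-fold follows the study's methods. The errors of changes are standard errors of this model. The procedure was tested on simulated data of this contrast over 27030 genes: it recovered 90 of 100 shifts of 1 log2 unit, 97 of 100 shifts of 2, and called 8 genes without a shift. The simulated noise was independent between genes, with 1 spread per gene in all groups. It therefore cannot give the share of false calls in the real data, where 16.2% of negative control probe sets were called. Genes were named by rule if called, without overlap between the groups and above the detection level in the higher group: the 20 largest rises and falls, and the 3 largest of each direction per family. Other genes are said to be chosen after their values were seen. The families, gene lists and members were chosen with earlier results of these data known. Tried alternatives were the 12 arrays only, replicate number as a block, a filter on low values, 2 scalings, the mean over clusters, a variance trend, array weights, an unadjusted p, and leaving out each array. Tumors and normal glands came from different mice, so their numbers pair nothing. Promoter and microRNA sequences are from RefSeq (GRCm38.p6).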

Additional observations from a re-analysis of the deposited data

Results flagged for a closer look

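In 23 of 398 groups of 6 arrays tested, over 199 genes named in the text, the highest or lowest array stood apart from its group by Dixon's test, where chance alone gives about 1 in 20, or 19.9. Tumor 3 gave 7 of these and tumor 5 another 7. Tumor 3 was lowest for Fos (9.50, the other tumors 10.73 to 11.14), Jun (9.72), Ier2 (8.33), Hibch (5.70) and Moxd1 (7.68, the others 9.67 to 10.69), and highest for Loxl3 (10.24) and Socs3 (9.11, the others 7.55 to 8.02). It also had the lowest mean of epithelial markers, 7.46.

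Tumor 5 was highest for Tshr (6.34, the other tumors 4.74 to 5.30), Scg3 (6.13), Gstm1 (9.86), Gstz1 (8.60), Gimap3 (6.25) and Arntl (8.15), and lowest for Mafg (7.19). The first 5 of these genes fell in tumors. Its marker means were 8.73 for fat cells and 7.63 for lymph node, against 7.08 to 8.50 and 5.82 to 6.87 in the other tumors. Tumor 6 was highest for Hoxa5 (6.43) and tumor 2 lowest for Hoxa11 (4.90). Among normal glands, normal gland 6 was lowest for Abca8a (8.34), Aldh1l1 (7.58), Insig1 (8.48) and Derl1 (9.28), and highest for Efna4 (7.78). Normal gland 1 was lowest for Gimap3 (7.49) and normal gland 4 highest for Nup43 (6.14).

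Transcript clusters left out of the comparison also differed between tumors and normal glands. Of 1957 clusters with several symbols 15.7% were higher and 14.7% lower, and of 29537 without a name 5.39% were higher and 18.1% lower. Negative control probe sets were higher in 2.05% and lower in 14.2%.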

How the results depend on the processing

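Relative to the 16 reference genes, 2144 genes were higher and 11204 lower in tumors, 34 and 281 of them beyond 4-fold. These genes averaged 0.21 higher in tumors, 6 of them belong to a family described here, and the 10 others averaged 0.11. Under this centring the median change was 0.40 for tRNA synthetases, 0.27 for cholesterol synthesis, 0.26 for the proteasome, 0.21 for importins and for one-carbon metabolism, 0.18 for ribosome biogenesis, 0.15 for the unfolded protein response and for tubulins, 0.13 for the nuclear pore, 0.11 for mitochondrial import, 0.10 for ephrins, 0.08 for the spliceosome and 0.06 for initiation factors and mitochondrial ribosomal proteins. It was -0.02 for polycomb genes, -0.07 for matricellular proteins, -0.08 for cytosolic ribosomal proteins, -0.11 for hyaluronan genes, -0.14 for histone methyltransferases, -0.17 for olfactory receptors and -0.18 for amino acid transporters and potassium channels. It was -0.25 for Hox and microRNA genes, -0.28 for carbonic anhydrases and complement, -0.29 for interleukin-6 type genes and lipid receptors, -0.30 for ABC transporters, -0.36 for nuclear receptors and the phosphoinositide pathway, -0.39 for nitric oxide and adrenergic genes, -0.41 for glutathione enzymes, -0.45 for Kruppel-like factors, -0.55 for the clock, -0.64 for Gimap genes and -0.99 for immediate early genes. Mafg, Wars and Hoxa11 turned to -0.02, -0.01 and -0.02. Fewer members of the raised families were called higher under this centring. Higher and lower were 14 and 0 of 17 for tRNA synthetases, 28 and 1 of 40 for the proteasome and 9 and 2 of 19 for cholesterol synthesis. They were 15 and 8 of 34 for the unfolded protein response, 14 and 6 of 31 for the nuclear pore and 9 and 2 of 24 for mitochondrial import.

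With a filter on low values, medians were -0.12 for microRNA genes, -0.15 for Hox genes, -0.20 for ABC transporters, -0.28 for nuclear receptors, -0.34 for nitric oxide and adrenergic genes, -0.38 for complement and -0.66 for Gimap genes. With quantile normalization repeated, they were 0.04 for cytosolic ribosomal proteins, 0.16 for initiation factors, 0.18 for tubulins and 0.38 for the proteasome. Leaving out tumors 3 and 6, an alternative chosen after seeing the data, gave -0.25 for nuclear receptors and -0.23 for lipid receptors.

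Leaving out each array in turn gave 4685 to 5885 genes higher and 3150 to 3542 lower, 42 to 69 and 200 to 238 of them beyond 4-fold. The family median ran from 0.24 to 0.70 for collagen cross-linking genes, from -0.28 to -0.06 for glutathione enzymes and from -0.23 to -0.13 for nuclear receptors. No other family median moved beyond the spread between tumors. Of 405 genes that were called and named by rule or by choice, 396 stayed called with every array left out in turn. Fitted to the 12 arrays of tumors and normal glands only, 4540 genes were higher and 3177 lower, and 6 of the 405 lost their call. With the replicate number as a block, 5199 genes were higher and 3570 lower, and 1 of the 405 lost its call, Wars. Same-numbered tumors and normal glands deviated together with r between -0.187 and 0.106, so the numbers do not pair them. With the methods' unadjusted p under 0.05, 54 genes were higher and 217 lower beyond 4-fold.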

Other observations

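The hyperplastic glands of mice given MPA and DMBA are described here by values alone. Their array means for the proteasome were 8.51 to 8.68, above all normal glands (8.23 to 8.42) and below all tumors (8.74 to 8.91). For tRNA synthetases they were 8.41 to 8.56, again between tumors (8.60 to 9.07) and normal glands (8.09 to 8.34), and for cholesterol synthesis 7.77 to 8.0, within or below the range of tumors (7.82 to 8.41) and above normal glands (7.44 to 7.69). Branched-chain amino acid breakdown, at 8.28 to 8.83, lay above all tumors (7.57 to 8.22) and overlapped normal glands (8.27 to 8.47).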
